A study of Saccharomyces cerevisiae with 26 samples.

Results

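The genes described here encode the machinery with which Saccharomyces cerevisiae activates, imports and burns fatty acids, and the peroxins that build the peroxisome in which this takes place. The group was a fixed list of 40 genes, and all 40 had a spot, among 5606 genes with a spot. It was divided by role into 14 genes of activation, import and oxidation, 4 genes of the carnitine shuttle, 2 genes that export reducing equivalents or carbon as malate and citrate (MDH3, CIT2), 2 transcription factors (OAF1, PIP2) and 18 peroxins. The rule that chose them uses no measured value, but the list was drawn up with earlier results of these data known.

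In yeast, the β-oxidation of fatty acids is confined to the peroxisome. An acyl-CoA oxidase, a multifunctional hydratase and dehydrogenase and a thiolase shorten the chain, catalase removes the peroxide that the oxidase makes, and the acetyl units leave as acetyl-carnitine or through the glyoxylate cycle. Most of the oxidation genes are repressed by glucose and induced by oleate through the factor pair Oaf1 and Pip2 together with Adr1, whereas many peroxins are made at a basal level on any carbon source.

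In the study, galactose chemostats received a passing pulse of glucose, and total RNA was followed on 14 arrays from 3 to 240 min after 2 g/l and on 12 arrays from 2 to 150 min after 0.2 g/l. Every array compared 1 time after the pulse, labelled with Cy5, with the chemostat at t=0, labelled with Cy3. The sources used here give neither the strain nor whether 1 extract of t=0 served the whole series of a pulse. Both pulses shared galactose as the carbon source before the pulse, and no unpulsed culture of a later time is among the samples used here. Values are log2 ratios, on which 0 is the level at t=0 and a fall by 1 is a halving.

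The arrays after 2 g/l formed an early window (3, 5, 7 and 10 min), a middle window (15, 20, 30 and 45 min), a late window (90, 120 and 150 min) and a last window (180, 210 and 240 min). Those after 0.2 g/l formed an early window (2, 4, 6, 8 and 10 min), a middle window (15, 20, 30 and 45 min) and a late window (90, 120 and 150 min). A window mean is given with its SD over these times, so real change within a window is part of the SD. There was 1 array per time, no array with the dyes exchanged and, per the labels, no repeat of a culture. The p values therefore refer to the spread between times of 1 culture, and the dose cannot be told apart from the culture. Windows of 1 pulse share the t=0 reference. The RNA came from whole cultures, so fewer cells with a transcript and less of it per cell cannot be told apart, and a ratio does not give the level at t=0.

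All 40 genes passed the filter of at least 2 values in every window and were tested with limma among 5372 genes. Calls are at an adjusted p (Benjamini-Hochberg) under 0.05. Leaving out an array or changing the fit can change the share of all genes called as well. A count of members given without that share shows only how far the calls depend on that array or fit. Per array, 5104 to 5602 genes and 37 to 40 members had a value. The median of all genes lay between -0.107 and 0.1 on every array. Of the members with several spots, FAA2 and OAF1 had spots that disagreed: their median absolute difference was 1.88 for FAA2 and 0.445 for OAF1, with correlations over arrays of -0.181 and -0.363. Those of PEX5 differed by 0.28, with a correlation of 0.225. The spots of CIT2 differed by 0.087, with a correlation of 0.981.

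Several arrays after 0.2 g/l had stretches of spots that stood apart from the rest of the array. When the 10752 spots were divided into 16 blocks of 672 consecutive spot numbers, the block medians after 2 g/l stayed between -0.326 and 0.259. Following 0.2 g/l they reached -0.988 on the array of 20 min, -1.42 on that of 30 min, -1.53 on that of 45 min and -0.952 on that of 90 min. A block was called shifted where its median lay more than 0.3 from the median of the array's block medians, or its 10th percentile more than 1 below theirs. On the arrays of 20, 30, 45 and 90 min 4, 6, 4 and 7 blocks were shifted, and at most 2 on any other array of either pulse.

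Spots below -3 were concentrated in the same places. Of 205 such spots at 45 min 190 lay in the first 4 blocks, and of 238 at 30 min 206 lay in the last 6. On the 0.2 g/l arrays of 20, 30, 45 and 90 min, 10, 13, 11 and 18 members lay in shifted blocks. Results after 0.2 g/l are therefore given as deposited and again with shifted blocks left out, a setting chosen after seeing the data, under which 34 members and 4692 genes could be tested. POT1, ECI1, ANT1, CIT2, PEX6 and PEX21 could not. The 0.2 g/l arrays at 45, 30 and 90 min also correlated least, across genes, with the rest of their window (r = 0.123, 0.365 and 0.443).

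**Figure D1:**
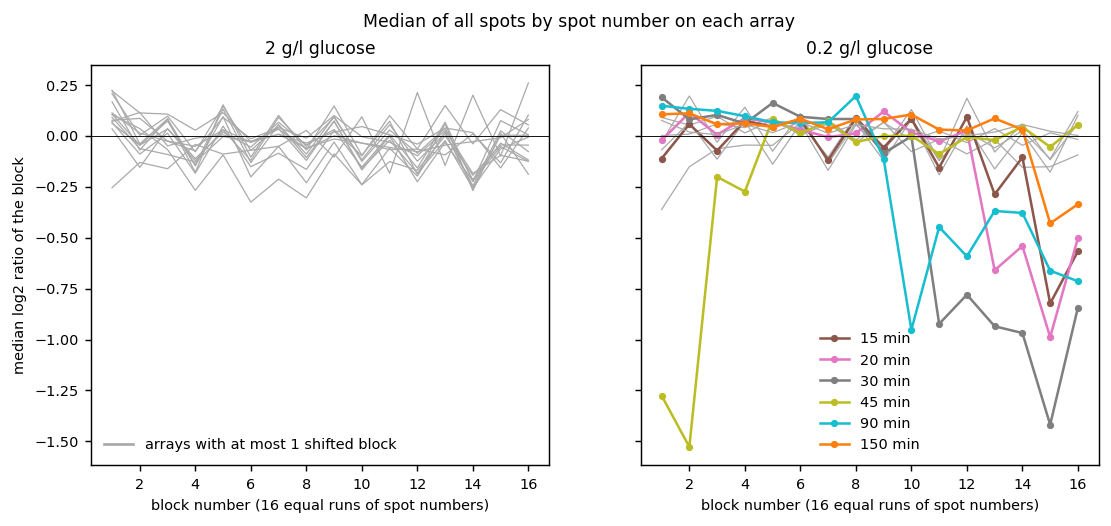
Median log2 ratio (y axis) of each of the 16 blocks of 672 consecutive spots (x axis, block number) for all 26 arrays, with the 0.2 g/l arrays of 15, 20, 30, 45, 90 and 150 min in colour and the arrays with at most 1 shifted block in grey. The coloured lines drop to -1.53 at 45 min in the low spot numbers and to -1.42 at 30 min in the high ones, and the grey lines stay near 0.

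After both pulses the medians of the oxidation and carnitine genes passed below 0 within minutes and later lay closer to it. The median of the peroxins lay nearer 0 than both from 3 to 150 min after 2 g/l and from 8 to 45 min after 0.2 g/l. It did so on some of the remaining arrays but not on all. For example, after 0.2 g/l peroxins and oxidation genes were at -0.15 and -0.13 at 6 min, and at 0.25 and 0.11 at 120 min. These medians do not hold for each gene: FAA1 and ANT1 were called in no window after 2 g/l, and YAT1 was still called lower in its last window. After 2 g/l the median of the 14 oxidation genes was -0.14 at 3 min, lowest at 10 min (-1.18) and still at -0.90 at 45 min. It was at -0.53 at 90 min and at -0.14 at 240 min. The carnitine genes had medians of -0.19 at 3 min and -1.28 at 10 min. Their median was still -0.94 at 45 min and had returned to -0.15 by 240 min. The median of the 18 peroxins was lowest at 10 min as well, but at -0.48, and the next lowest was -0.32 at 15 min.

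The same medians began above 0 when the pulse was 0.2 g/l. At 2 min the oxidation genes stood at 0.55 and the carnitine genes at 0.59, against 0.09 for the peroxins and 0.05 for all genes. At 15 min the oxidation genes had their lowest median, -1.70, and the carnitine genes stood at -1.85. With shifted blocks left out both medians at 15 min were the same to 2 decimals. The lowest carnitine median as deposited was -2.14 at 10 min, which became -1.40 without the shifted block of that array. At 150 min the medians were 0.41, 0.56 and 0.35 for oxidation genes, carnitine genes and peroxins.

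The number of members at or below -1 followed the same course. With 2 g/l, 1 member was this low at 3 min, 14 members at 10 min, 8 at 45 min, 5 at 90 min and 0 at 240 min. With 0.2 g/l, 1 was this low at 2 min, 20 of 38 with a value at 15 min, 6 at 45 min and 0 at both 120 and 150 min. These counts are as deposited. At 15 min 4 members lay in shifted blocks, and FOX2, CAT2, PXA2, IDP3 and PEX22, among the 6 at 45 min, did so there. The share of all genes at or below -1 was not counted, so these counts cannot be set against a background.

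**Figure D2:**
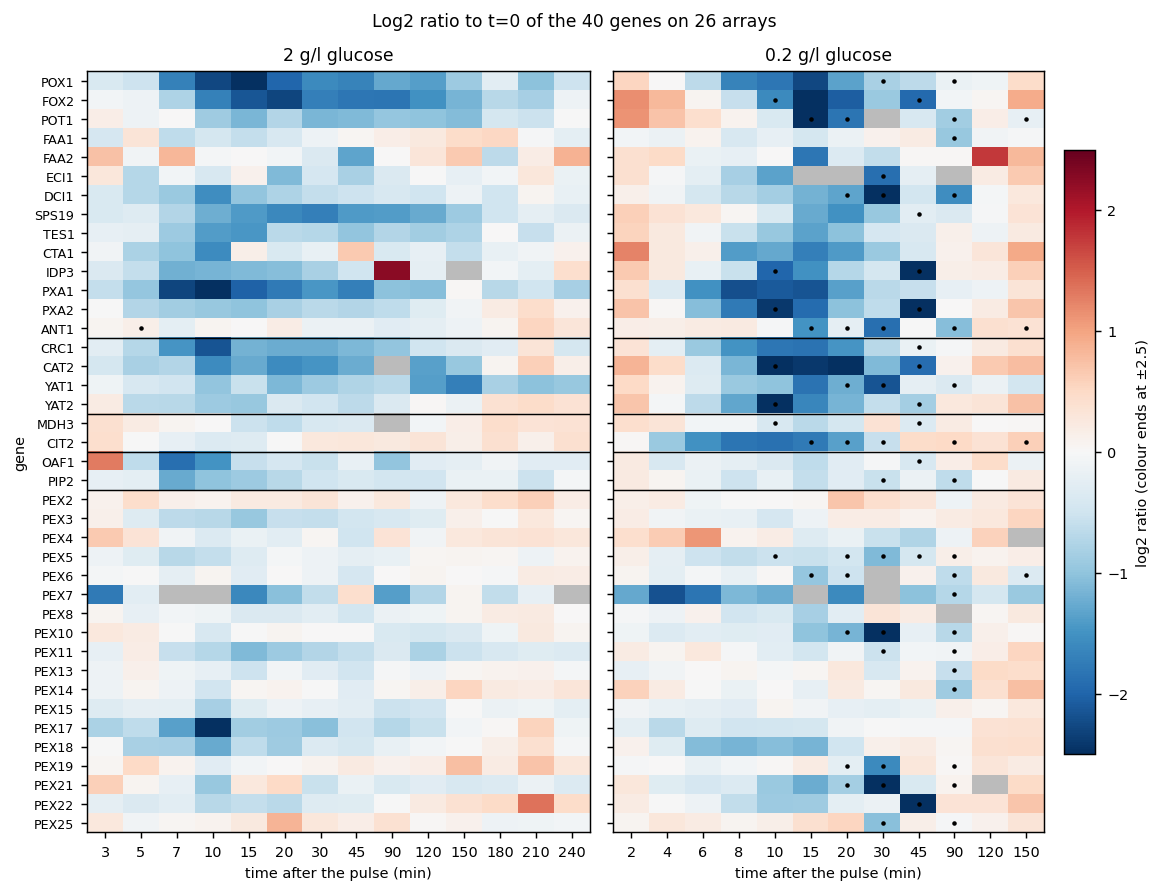
Log2 ratio of each of the 40 genes (rows, ordered by role) on each of the 26 arrays (columns, time in min within each pulse), with the colour scale ending at -2.5 and 2.5, grey for no value and a dot for a spot in a shifted block. The blue band of the oxidation and carnitine rows is broad after 2 g/l and centred on 15 min after 0.2 g/l, and the deepest isolated cells after 0.2 g/l carry dots.

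**Figure D3:**
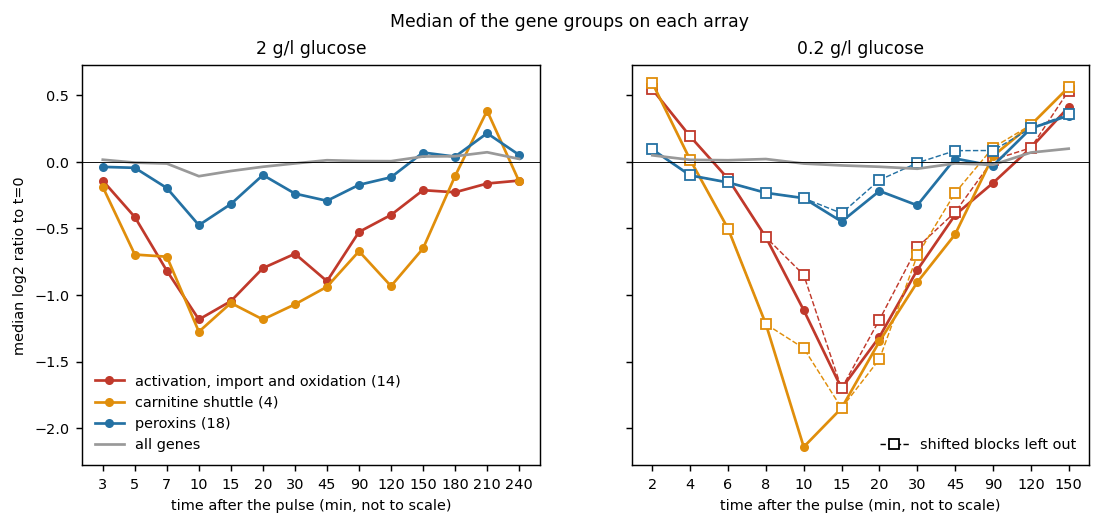
Median log2 ratio (y axis) of the oxidation genes, the carnitine genes, the peroxins and all genes against time after the pulse in min (x axis), for 2 g/l and 0.2 g/l glucose; open squares with dashed lines leave out shifted blocks. The oxidation genes reach -1.18 at 10 min after 2 g/l and -1.70 at 15 min after 0.2 g/l, the peroxins -0.48 and -0.45.

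In the early window after 2 g/l glucose, 14 of the 40 genes were lower than at t=0 and 0 higher. Among all genes tested 20.8% were lower and 16.8% higher, and the median estimate was -0.40 for the members and -0.04 for all genes. Of the oxidation genes 6 of 14 fell, of the carnitine genes 2 of 4 and of the peroxins 5 of 18. PIP2 fell too, and OAF1, MDH3 and CIT2 were not called. When shifted blocks were left out, 16 of the 34 genes tested were lower and 0 higher, against 26.7% and 22.2% of all genes. IDP3 and PEX11 gained calls there.

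The deepest early fall was that of PXA1, which encodes one subunit of the transporter that carries long-chain acyl-CoA into the peroxisome. It stood at -0.59, -0.98, -2.29 and -4.10 at 3, 5, 7 and 10 min, a mean of -1.99 ± 1.59 (n = 4, adjusted p = 0.0012). All 4 values were below 0 and each was lower than the one before. POX1, the acyl-CoA oxidase of the first step, went from -0.38 and -0.51 at 3 and 5 min to -1.70 and -2.27 at 7 and 10 min (mean -1.22 ± 0.92, n = 4, adjusted p = 0.00683). CRC1, the carrier that takes acetyl-carnitine into mitochondria, gave -0.27, -0.72, -1.47 and -2.15 (mean -1.15 ± 0.83, n = 4, adjusted p = 0.00464). Both thus had most of their early change at 7 and 10 min. CAT2, a carnitine acetyltransferase, was at -0.89 ± 0.48 (adjusted p = 0.0449).

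CTA1, the peroxisomal catalase, fell to -0.86 ± 0.62 (n = 4, adjusted p = 0.0322). DCI1, a homologue of the enoyl-CoA isomerase, was at -0.90 ± 0.49 (adjusted p = 0.0154) and the thioesterase gene TES1 at -0.68 ± 0.57 (adjusted p = 0.0156). SPS19, the dienoyl-CoA reductase for unsaturated fatty acids, was at -0.66 ± 0.41 (adjusted p = 0.00552). These 4 genes lay below 0 on all arrays of the window. FOX2, which encodes the multifunctional second enzyme, was at -0.67 ± 0.76 (adjusted p = 0.123), with -0.07 and -0.14 at 3 and 5 min and -1.69 at 10 min. The thiolase gene POT1 was at -0.12 at 5 min and -0.89 at 10 min, and was not called.

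Among the peroxins PEX17, a part of the docking complex of the importer, was at -0.79, -0.64, -1.36 and -3.16, a mean of -1.49 ± 1.16 (n = 4, adjusted p = 0.000205). PEX18, a co-receptor of Pex7, was at -0.73 (adjusted p = 0.00997). PEX5, the receptor of the C-terminal targeting signal, was at -0.43 (adjusted p = 0.00838). PEX15, the membrane anchor of the export ATPases, was at -0.40 (adjusted p = 0.00286), and PEX3, which inserts membrane proteins, at -0.39 (adjusted p = 0.0163). Apart from PEX17 these falls were under 1 on the log2 scale. PIP2 stood at -0.20 and -0.24 at 3 and 5 min and at -1.25 and -1.01 at 7 and 10 min (mean -0.68 ± 0.54, adjusted p = 0.00292).

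The early count depended on the arrays of 10 and 7 min: without the first 3 members were called and without the second 8. The share of all genes called fell as well, from 37.6% to 21.5% and 25.2%. With the window fitted alone 3 members and 16.3% of all genes were called. Without 10 min PXA1, PEX17 and PIP2 were called. The genes not called without it were POX1 (-0.86), CRC1 (-0.82), DCI1 (-0.68), CAT2 (-0.66), CTA1 (-0.63), PEX18 (-0.55), SPS19 (-0.48), TES1 (-0.45), PEX5 (-0.38), PEX3 (-0.29) and PEX15 (-0.26). Without 7 min they were CAT2 (-0.94), DCI1 (-0.88), CTA1 (-0.81), TES1 (-0.61), PEX5 (-0.34) and PEX3 (-0.30), and without 5 min CAT2 (-0.92) and CTA1 (-0.89). All of these kept their direction.

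In the middle window after 2 g/l, 17 members were lower and 0 higher. Among all genes tested 22.1% were lower and 21.7% higher, with median estimates of -0.52 for the members and -0.03 for all genes. The lower genes were 6 of 14 oxidation genes, 3 of 4 carnitine genes, 6 of 18 peroxins, PIP2 and MDH3. Without any single array of the window 13 or 14 members were called. When shifted blocks were left out, 22 of the 34 genes tested were lower and 1 higher, against 27.6% and 28.5% of all genes. The calls gained were those of IDP3, PEX15, PEX22, PEX25, PXA2 and YAT2.

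FOX2 was at -2.14, -2.30, -1.72 and -1.81 at 15, 20, 30 and 45 min, a mean of -1.99 ± 0.27 (n = 4, adjusted p = 7.08e-05). POX1 was at -2.53, -1.99, -1.58 and -1.67 (mean -1.94 ± 0.43, adjusted p = 8.34e-05), and PXA1 at -2.02, -1.77, -1.46 and -1.70 (mean -1.74 ± 0.23, adjusted p = 0.00201). These 3 genes, for import and the first 3 reactions of the cycle, were the lowest of all members in this window, with the 4 arrays close together. The thiolase POT1 had values of -1.14, -0.72, -1.14 and -1.10 and a mean of -1.03 ± 0.20, but was not called (adjusted p = 0.149). The fit uses 1 variance per gene over all windows, which for POT1 includes a value of -7.00 at 15 min after 0.2 g/l.

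SPS19 was the most even of the oxidation genes: it stood at -1.42, -1.62, -1.72 and -1.42 (mean -1.54 ± 0.15, adjusted p = 1.45e-06). TES1 was at -0.95 ± 0.36 (adjusted p = 0.00104) and DCI1 at -0.72 ± 0.21 (adjusted p = 0.0428), and DCI1 lost its call without any one of the 4 arrays (-0.79 to -0.63). The catalase gene CTA1 had returned to 0.15, -0.39, -0.19 and 0.66. ANT1, the peroxisomal adenine nucleotide carrier, was at -0.02, and PXA2, the second transporter subunit, at -0.80 (adjusted p = 0.111). IDP3, which supplies the reductase with NADPH, was at -0.87 (adjusted p = 0.125). FAA1 and FAA2, for acyl-CoA synthetases, and the isomerase gene ECI1 were not called in any window after 2 g/l.

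The carnitine genes CAT2, CRC1 and YAT1 fell in this window. CAT2, whose enzyme is shared by peroxisomes and mitochondria, was at -1.26, -1.57, -1.48 and -1.23 (mean -1.38 ± 0.17, adjusted p = 0.00247). CRC1 was at -1.18, -1.25, -1.24 and -1.12 (mean -1.20 ± 0.06, adjusted p = 0.00241). YAT1, the acetyltransferase of the outer mitochondrial membrane, was at -0.83 ± 0.24 (adjusted p = 0.00863), and not called without the array of 20 min (-0.73). YAT2, the cytosolic one, had values between -0.94 and -0.37 and was not called as deposited. The peroxisomal malate dehydrogenase MDH3 fell to -0.49 ± 0.13 (adjusted p = 0.00596), and the peroxisomal citrate synthase CIT2 stayed between -0.32 and 0.29.

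Of the peroxins, PEX11, which acts in peroxisome division and is itself oleate-induced, was at -1.10, -0.91, -0.73 and -0.60 (mean -0.84 ± 0.22, adjusted p = 3.91e-05). PEX3 was at -0.65 ± 0.21 (adjusted p = 0.00025) and PEX17 at -0.83 ± 0.24 (adjusted p = 0.00889). Both lay below 0 at all 4 times. PEX18 (-0.58, adjusted p = 0.032), PEX8 (-0.37, adjusted p = 0.0289) and PEX13 (-0.34, adjusted p = 0.0411) also fell, and Pex8 and Pex13 are parts of the importer. PEX18 was not called without 15, 20 or 45 min (-0.62 to -0.47), PEX8 without any one array (-0.40 to -0.33) and PEX13 without 15, 30 or 45 min (-0.36 to -0.28). The ubiquitin ligase genes PEX2 and PEX10 were at 0.22 and 0.02 and not called.

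**Figure D4:**
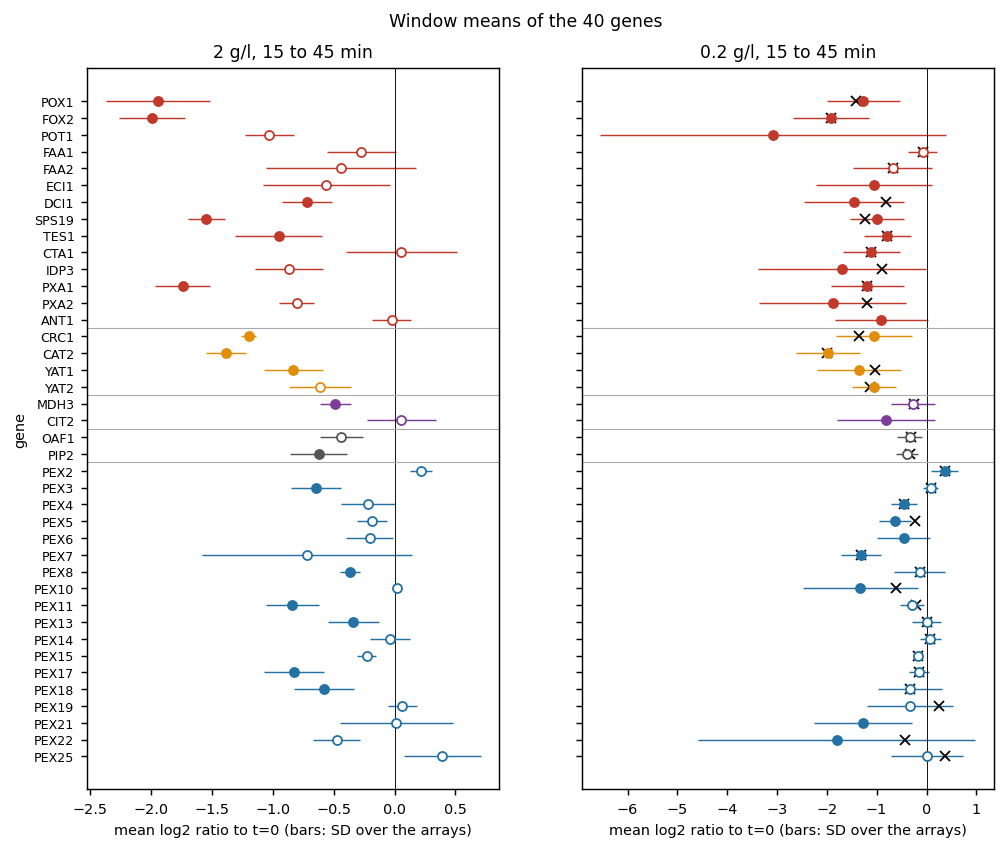
Mean log2 ratio ± SD (x axis; the panels have different ranges) of each of the 40 genes (rows) in the middle window (15 to 45 min) after 2 g/l and 0.2 g/l, with filled points for genes called by limma and crosses for the mean with shifted blocks left out. FOX2 lies at -1.99 and -1.92; POT1, PEX22 and PXA2 have long bars after 0.2 g/l, where their crosses lie closer to 0 or are missing.

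In the late window after 2 g/l 7 members were lower and 0 higher, where 5.51% of all genes were lower and 9.03% higher. When shifted blocks were left out, 9 of the 34 genes tested were lower and 0 higher, against 8.5% and 15.5% of all genes. CAT2 and PEX10 gained calls there. FOX2 was at -1.83, -1.51 and -1.16 at 90, 120 and 150 min (mean -1.50 ± 0.34, n = 3, adjusted p = 0.011). SPS19 was at -1.40, -1.25 and -0.91 (mean -1.19 ± 0.25, adjusted p = 0.000337). YAT1 went the other way, with -0.67, -1.37 and -1.71 (mean -1.25 ± 0.53, adjusted p = 0.00458). YAT1 was thus lowest of its whole course at 150 min, a time by which FOX2 and SPS19 had come back in part.

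POX1 (-1.19 ± 0.26, adjusted p = 0.0396), TES1 (-0.79 ± 0.07, adjusted p = 0.0334), PEX11 (-0.56 ± 0.21, adjusted p = 0.0154) and PEX15 (-0.34, adjusted p = 0.0412) were the other late calls. POT1 had a mean of -1.02 (adjusted p = 0.329) and CAT2 one of -1.15 from 2 arrays (adjusted p = 0.121), and neither was called as deposited. IDP3 had a single high value of 2.27 at 90 min, against -0.22 at 120 min. With 3 arrays these calls were fragile: without the array of 90, 120 or 150 min 3, 2 and 3 members were called. SPS19 was called each time, while POX1 and TES1 lost their call without any one of the 3. FOX2 lost it without 90 min (-1.34) or 120 min (-1.50), YAT1 without 150 min (-1.02), PEX11 without 120 min (-0.45) or 150 min (-0.58), and PEX15 without 90 min (-0.25) or 120 min (-0.28).

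In the last window after 2 g/l, 1 member was lower and 1 higher, against 2.42% and 5.96% of all genes. YAT1 remained at -0.81, -1.03 and -0.95 at 180, 210 and 240 min (mean -0.93 ± 0.11, adjusted p = 0.0432). The ligase gene PEX2 was at 0.44, 0.59 and 0.19 (mean 0.41 ± 0.20, adjusted p = 0.04). Neither was firm: YAT1 was not called without any one of the 3 arrays (-0.99 to -0.88), nor PEX2 without 180 min (0.39) or 210 min (0.31). With shifted blocks left out PEX22 (0.77, adjusted p = 0.00928) and PEX19 (0.40, adjusted p = 0.0421) were called higher as well, against 11.8% higher and 4.37% lower of all genes. Their means were the same as deposited (adjusted p = 0.503 and 0.3). PEX19, whose product brings membrane proteins to Pex3, was called in no window as deposited. Median estimates of members and of all genes were alike, 0.05 and 0.05.

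In the 0.2 g/l series the early window held both a first reading above 0 and a fall, so its means hide the course of many genes. FOX2 was at 1.16 at 2 min, 0.82 at 4 min, 0.07 at 6 min, -0.58 at 8 min and -1.59 at 10 min, the last in a shifted block. CTA1 began at 1.24 and was at -1.39 at 8 min, and POT1 began at 1.12 and was at -0.38 at 10 min. Of the 14 oxidation genes 13 were above 0 at 2 min, which is a single array.

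Over the window 7 members were lower and 1 higher, against 11.7% lower and 18.1% higher of all genes, and the median estimate was -0.18 for members and 0.02 for all genes. CIT2 fell without a first rise: it stood at 0.02, -0.92, -1.52, -1.83 and -1.86 at 2, 4, 6, 8 and 10 min (mean -1.22 ± 0.79, n = 5, adjusted p = 0.000785), with none of these spots in a shifted block. PEX7, the receptor of the N-terminal targeting signal, was at -1.28, -2.17, -1.83, -1.12 and -1.25 (mean -1.53 ± 0.45, adjusted p = 0.000475). PEX7 was however at -0.44 and -0.93 at 120 and 150 min too, and below 0 on every 0.2 g/l array with a value.

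PXA1 (-1.15 ± 1.14, adjusted p = 0.0259), CRC1 (-0.82 ± 0.88, adjusted p = 0.0233), YAT2 (-0.77 ± 1.22, adjusted p = 0.0352), PEX18 (-0.70 ± 0.57, adjusted p = 0.0083) and PEX5 (-0.35 ± 0.31, adjusted p = 0.0188) were the other falls. PEX4, a ubiquitin-conjugating enzyme, was higher at 0.49 ± 0.40 (adjusted p = 0.0152), with 0.43, 0.64, 1.10, 0.08 and 0.19. PXA1 passed from 0.41 at 2 min to -2.19 at 8 min, and CRC1 from 0.34 to -1.50. Without the arrays of 6, 8 or 10 min 3, 3 and 4 members were called. CIT2 and PEX7 were called each time. PXA1 was not called without 6 min (-1.06), 8 min (-0.89) or 10 min (-0.91), nor CRC1 (-0.80, -0.66 and -0.58), YAT2 (-0.79, -0.63 and -0.33) and PEX5 (-0.31, -0.29 and -0.30). PEX18 was not called without 8 min (-0.58), nor PEX4 without 4 min (0.45) or 6 min (0.33). With shifted blocks left out YAT2 lost its call, and DCI1 (-0.39, adjusted p = 0.0485) and PEX10 (-0.26, adjusted p = 0.0374) gained one, against 15.2% lower and 25.1% higher of all genes.

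In the middle window after 0.2 g/l, 24 members were lower and 1 higher as deposited, against 24.4% and 15.1% of all genes, with median estimates of -0.80 and -0.13. With shifted blocks left out, 16 of the 34 genes tested were lower and 2 higher, against 11.7% and 24.1% of all genes, with medians of -0.44 and 0.08. Of the oxidation genes 12 of 14 fell as deposited and 9 of 11 without the shifted blocks, of the carnitine genes 4 of 4 both times, and of the peroxins 7 of 18 and 3 of 16. Members called both ways numbered 17. When the window was fitted alone, limma called 0 of the 40 members, 18 of which had an unadjusted p under 0.05, and called 0.0372% of all genes. The main fit uses 1 variance per gene over all windows, and why the 2 fits differ was not tested.

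SPS19 was at -1.27, -1.51 and -0.95 at 15, 20 and 30 min and at -0.26 at 45 min in a shifted block (mean -0.998 ± 0.54, n = 4, adjusted p = 0.000262; -1.24 without that block, adjusted p = 3.56e-05). FOX2 was at -2.74, -2.07 and -0.92, and at -1.94 at 45 min in a shifted block (mean -1.92 ± 0.75, adjusted p = 0.00026; -1.91 without, adjusted p = 0.00028). POX1 was at -2.27, -1.34, -0.81 and -0.66 (mean -1.27 ± 0.73, adjusted p = 0.0053; -1.42 without the 30 min value, adjusted p = 0.00829). In all of them the values outside shifted blocks were lowest at 15 or 20 min and closer to 0 afterwards.

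TES1 (-0.79 ± 0.47, adjusted p = 0.00688), CTA1 (-1.11 ± 0.57, adjusted p = 0.0079) and PXA1 (-1.19 ± 0.73, adjusted p = 0.0299) had no spot in a shifted block in this window and fell. CTA1 was at -1.70, -1.41, -0.94 and -0.39, and TES1 at -1.34, -1.02, -0.43 and -0.36. Both came closer to 0 from each time to the next.

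PXA2 had a mean of -1.89 ± 1.47 that held a value of -3.94 at 45 min in a shifted block, and was at -1.20 without it (adjusted p = 0.00526). IDP3 went from -1.69 to -0.89 (adjusted p = 0.0357) without its value of -4.12, and DCI1 from -1.45 to -0.82 (adjusted p = 0.013). These 3 were called both ways, at smaller values without the blocks. POT1 had -7.00 at 15 min and -1.83 at 20 min, both in shifted blocks, no value at 30 min and -0.40 at 45 min. Its mean of -3.08 ± 3.47 (adjusted p = 0.00129) therefore gives no usable size. ECI1 (-1.05, adjusted p = 0.03) and ANT1 (-0.90, adjusted p = 0.00416) also rested on spots in such blocks and could not be tested without them.

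All 4 carnitine genes fell, as deposited and without the shifted blocks. CAT2 was at -2.41, -2.51 and -1.11, and at -1.91 at 45 min in a shifted block (mean -1.98 ± 0.64, adjusted p = 0.00026; -2.01 without, adjusted p = 8e-05). YAT2 was at -1.63, -1.16, -0.60 and -0.85 (mean -1.06 ± 0.44, adjusted p = 0.00831; -1.13 without 45 min, adjusted p = 0.00229), and CRC1 at -1.85, -1.48, -0.70 and -0.17 (mean -1.05 ± 0.76, adjusted p = 0.00842; -1.35 without 45 min, adjusted p = 0.00321). YAT1 was at -1.36 ± 0.85 with 2 values in shifted blocks and at -1.04 without them (adjusted p = 0.0219). CAT2 was the lowest of the 4 either way.

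CIT2 was at -1.77, -1.35, -0.58 and 0.45 (mean -0.81 ± 0.98, adjusted p = 0.0203), but the first 3 of these lay in shifted blocks, and the mean was 0.01 (adjusted p = 0.982) when every block was centred on its own median. MDH3 (-0.27, adjusted p = 0.112), OAF1 (-0.34, adjusted p = 0.356) and PIP2 (-0.39, adjusted p = 0.0608) were not called. In this window the fall of CIT2 thus rested on spots in shifted blocks, which it did not in the early window.

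Several peroxin calls depended on the shifted blocks. PEX10 was at -1.01, -1.17, -2.93 and -0.21 (mean -1.33 ± 1.15, adjusted p = 0.000316), with the middle pair in shifted blocks, and at -0.61 without them (adjusted p = 0.00463). PEX22, the anchor of Pex4, had -5.94 at 45 min in a shifted block. Its mean of -1.80 ± 2.78 (adjusted p = 0.0113) became -0.42 without it (adjusted p = 0.0841), and PEX5 went from -0.63 (adjusted p = 0.000535) to -0.23 (adjusted p = 0.104). Both calls were thus lost.

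PEX21 (-1.28, adjusted p = 0.00106) and PEX6 (-0.46, adjusted p = 0.0248) could not be tested without the shifted blocks, and PEX6 was at 0.17 (adjusted p = 0.204) with every block centred. PEX4 (-0.45, adjusted p = 0.0324) and PEX7 (-1.31 from 2 arrays, adjusted p = 0.0194) had no value in a shifted block and were lower. PEX2 was higher, at 0.05, 0.69, 0.42 and 0.31 (mean 0.37 ± 0.27, adjusted p = 0.00903). PEX25, a partner of Pex11 in division, was higher only without its shifted spot, at 0.37 (adjusted p = 0.0154) against 0.01.

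Without the array of 15 min 16 members were called. POX1 (-0.94), TES1 (-0.60), CTA1 (-0.91), PXA1 (-0.87), CRC1 (-0.79), YAT2 (-0.87), CIT2 (-0.50), PEX4 (-0.49) and PEX6 (-0.21) were then not called. Without 20 min the genes not called were PXA1 (-1.14), CRC1 (-0.91), CIT2 (-0.63), PEX2 (0.26), PEX6 (-0.43) and PEX7 (-1.03). They were ECI1 (-0.22), ANT1 (-0.58) and PEX4 (-0.42) without 30 min, and IDP3 (-0.89), PEX4 (-0.35) and PEX22 (-0.42) without 45 min. FOX2, SPS19, CAT2 and YAT1 were called without any one of the 4 arrays.

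In the late window after 0.2 g/l limma called 0 of the 40 members, 2 of which had an unadjusted p under 0.05, against 3.61% higher and 3.93% lower among all genes. The members' median estimate was 0.15, that of all genes 0.03. FOX2 was at -0.08, 0.04 and 0.93 at 90, 120 and 150 min, and CAT2 at 0.11, 0.66 and 0.77. Both had thus reached t=0 or gone above it by 150 min. Without the shifted blocks PEX13 (0.46, adjusted p = 0.0292) and PEX14 (0.57, adjusted p = 0.0279), both of the docking complex, were higher, each from 2 arrays, where 7.82% of all genes were higher and 1.98% lower.

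**Figure D5:**
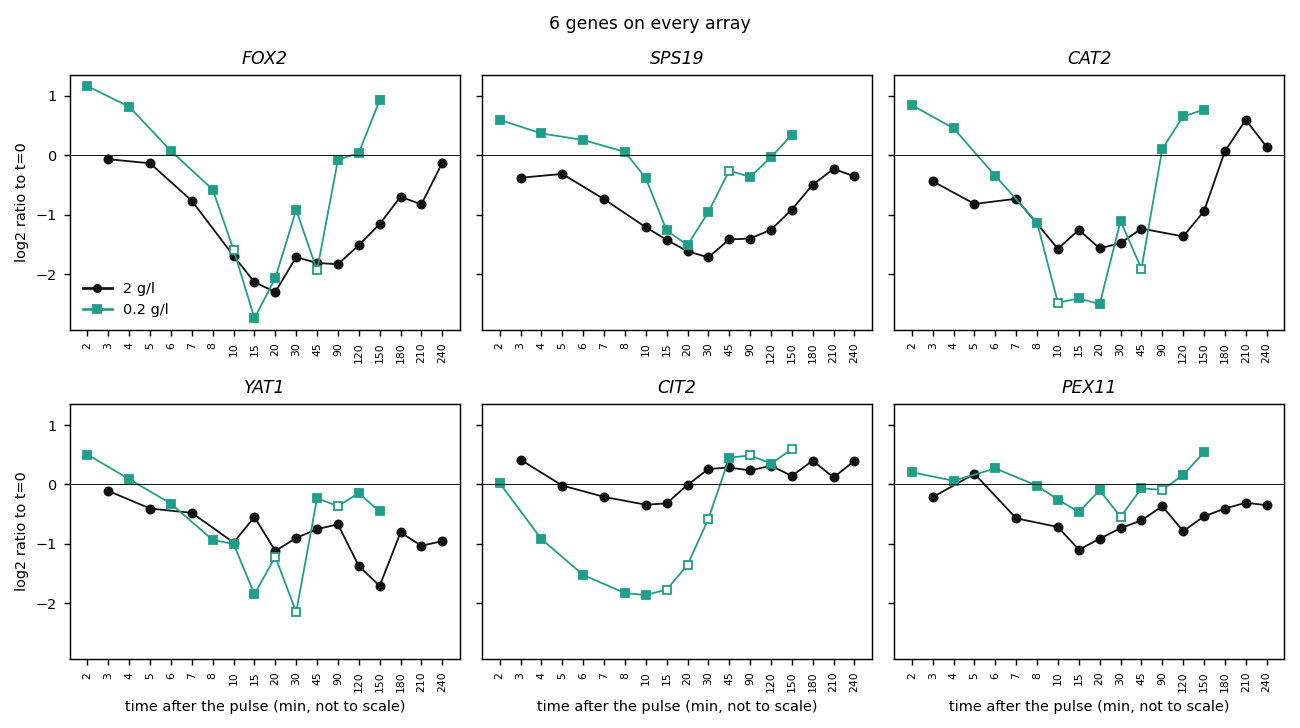
Log2 ratio (y axis) against time after the pulse in min (x axis) for FOX2, SPS19, CAT2, YAT1, CIT2 and PEX11 after 2 g/l and 0.2 g/l, 1 point per array, with open points for spots in shifted blocks. At 90 min FOX2 lies near 0 after 0.2 g/l and at -1.83 after 2 g/l. SPS19 is then at -1.40 after 2 g/l and less far below 0 after 0.2 g/l. CIT2 reaches -1.86 after 0.2 g/l and -0.34 after 2 g/l.

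Tested directly, the pulses differed for few members. Between the early windows limma called 0 of the 40 members, 5 of which had an unadjusted p under 0.05, and of all genes 0.242% were called higher with the larger pulse and 0.242% lower. For CIT2 the means were -0.04 ± 0.33 after 2 g/l and -1.22 ± 0.79 after 0.2 g/l, and the difference of 1.18 had an unadjusted 95% interval from 0.44 to 1.93 (adjusted p = 0.138). For SPS19 they were -0.66 and 0.18, and the difference of -0.84 had an adjusted p = 0.109, or 0.0357 with shifted blocks left out, where 1.26% of all genes were lower and 0.469% higher. CIT2 was thus lower after the smaller pulse on average, though the difference did not pass. Leaving out 2 g/l 3 min, 2 g/l 5 min or 0.2 g/l 2 min gave 1, 2 and 1 calls.

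In the middle window 1 member was lower and 2 were higher after 2 g/l than after 0.2 g/l, against 6.25% and 8.53% of all genes. PEX3 was at -0.65 ± 0.21 after 2 g/l and 0.08 ± 0.15 after 0.2 g/l, a difference of -0.73 ± 0.18 (SE, adjusted p = 0.00925), with arrays that did not overlap and no spot in a shifted block after 0.2 g/l in this window. As PEX3 passed this same comparison, the lack of overlap is no separate evidence. PEX10 was at 0.02 ± 0.03 and -1.33 ± 1.15, a difference of 1.34 (adjusted p = 0.0116), which was 0.62 with shifted blocks left out (adjusted p = 0.0311). PEX21, a co-receptor of Pex7, differed by 1.29 (adjusted p = 0.0245) and had a value of -2.66 at 30 min after 0.2 g/l in a shifted block. PEX21 was not called without 2 g/l 15 min (1.21), 2 g/l 20 min (1.13) or 0.2 g/l 30 min (0.83).

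PEX11 differed by -0.55 (adjusted p = 0.0531), and by -0.63 with shifted blocks left out (adjusted p = 0.0322), where 9.59% of all genes were lower and 3.82% higher. Catalase CTA1 was at 0.06 ± 0.46 and -1.11 ± 0.57, with values that did not overlap and no shifted block, but its difference of 1.17 was not called (adjusted p = 0.0725). No oxidation or carnitine gene was called. Without 0.2 g/l 45 min 7 members differed, and without 0.2 g/l 15 min 5, counts given here without the share of all genes. With both windows fitted alone, or with time as a block, limma called 0 of the 40 members here, so that PEX3, PEX10 and PEX21 lost their calls, and 7 and 8 members had an unadjusted p under 0.05. With time as a block 0% of all genes were called, and the share with both windows fitted alone is not given here.

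In the late window SPS19 was the single call: it was at -1.19 ± 0.25 after 2 g/l and -0.02 ± 0.35 after 0.2 g/l, a difference of -1.17 ± 0.29 (SE, adjusted p = 0.0257), where 1.9% of all genes were lower and 1.14% higher. The call was lost without 2 g/l 90 min (-1.07), 2 g/l 120 min (-1.14), 0.2 g/l 120 min (-1.18) or 0.2 g/l 150 min (-0.99). Leaving out 2 g/l 150 min or 0.2 g/l 90 min gave 2 calls each. FOX2 differed by -1.80 (adjusted p = 0.076), CAT2 by -1.66 (adjusted p = 0.168) and PEX11 by -0.77 (adjusted p = 0.0551). SPS19 did not pass with time as a block (adjusted p = 0.0594), where FOX2 was the single member called (adjusted p = 0.0408), beside 0.614% of all genes. With shifted blocks left out FOX2, CAT2 and PEX11 passed as well, with adjusted p = 0.0284, 0.0404 and 0.0206, against 4.33% lower and 1.56% higher of all genes. For each of the 4 genes every late value after 2 g/l lay below every late value after 0.2 g/l. As the 4 were named for passing this same comparison, that is no separate evidence.

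From the early to the middle window after 2 g/l limma called 0 of the 40 members, 5 of which had an unadjusted p under 0.05, against 0.503% higher and 1.6% lower of all genes. The change was -0.88 for SPS19 (adjusted p = 0.0615) and -1.33 for FOX2 (adjusted p = 0.147), and neither passed. Without the array of 10 min 1 member was called. With 0.2 g/l 6 members were lower in the middle window than in the early one, against 5.08% lower and 1.14% higher of all genes. FOX2 changed by -1.89 (adjusted p = 0.0173) and SPS19 by -1.18 (adjusted p = 0.00622), as did PEX4 by -0.94 (adjusted p = 0.0159), which turned from above 0 to below it. All 3 were called with shifted blocks left out too, where 1.51% of all genes were lower and 1.68% higher. POT1 (-3.47), ANT1 (-1.05, adjusted p = 0.0437) and PEX10 (-1.07, adjusted p = 0.0487) were the others.

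ANT1 was not called without any one of the early arrays of 2, 4, 6, 8 or 10 min (-1.09 to -1.03), nor without 15 min (-0.85) or 30 min (-0.72). PEX10 was not called without any one early array (-1.09 to -1.03), nor without 20 min (-1.12) or 30 min (-0.53). PEX4 was not called without 6 min (-0.78), where 3 members were called. Without 45 min 10 members were called, and with both windows fitted alone limma called 0 of the 40, 8 of which had an unadjusted p under 0.05.

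The later windows were next set against the middle one. From the middle to the late window after 2 g/l limma called 0 of the 40 members, 4 of which had an unadjusted p under 0.05, against 3.46% higher and 0.8% lower of all genes. From the middle to the last window 5 rose, against 15.7% higher and 12% lower of all genes. These were CAT2 (1.65, adjusted p = 0.0223), FOX2 (1.44, adjusted p = 0.0393), SPS19 (1.18, adjusted p = 0.00266), MDH3 (0.87, adjusted p = 0.00399) and PEX3 (0.75, adjusted p = 0.00577). This count depended on the setting: it was 19 with the windows fitted alone (35.4% of all genes), 14 of 34 with shifted blocks left out (21.3% higher and 17.2% lower, 38.5% in all) and 11 with each block centred (34.2%). The median change was 0.51 for the members and 0.03 for all genes. FOX2 was not called without 15, 20, 45, 180, 210 or 240 min (1.23 to 1.58), nor CAT2 without 20 min (1.59) or 210 min (1.49), and either of these 2 left 3 calls.

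In the 0.2 g/l series 3 members rose from the middle to the late window, against 1.27% higher and 0.633% lower of all genes: CAT2 (2.49, adjusted p = 0.0145), FOX2 (2.21, adjusted p = 0.0278) and PEX5 (0.77, adjusted p = 0.0348). With shifted blocks left out they were CAT2 (2.52), FOX2 (2.21), YAT2 (1.57), FAA2 (1.55) and SPS19 (1.23), against 1.71% higher and 2.13% lower of all genes, and FAA2 rests on spots that disagree. CAT2 and FOX2 were called both ways. No member was called without 15, 20, 120 or 150 min, when CAT2 stood at 2.32 to 2.42. FOX2 was not called without 90 min (2.40) either, nor PEX5 without 30 min (0.61) or 90 min (0.77), and 17 members were called without 45 min (15.4% of all genes). Without the 3 arrays least like their window 21 of 39 were called, with 18.5% of all genes. With both windows fitted alone limma called 0 of the 40 members, 14 of which had an unadjusted p under 0.05.

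Set side by side, the oxidation and carnitine genes had lower medians than the peroxins in each early and middle window of both pulses. After 2 g/l the median estimates were -0.66, -0.70 and -0.14 for oxidation genes, carnitine genes and peroxins in the early window, and -0.84, -1.01 and -0.22 in the middle window. For 0.2 g/l they were -0.18, -0.65 and -0.14 in the early window as deposited, and -0.16, -0.33 and -0.14 with shifted blocks left out. Oxidation genes and peroxins thus lay close together in that window either way. In the middle window the medians were -1.15, -1.21 and -0.31 as deposited, and -1.11, -1.24 and -0.16 with shifted blocks left out. The difference between the groups has no test here. Single peroxins crossed the order: PEX11, PEX17 and PEX18 were as low after 2 g/l as several oxidation genes, and FAA1, ANT1 and CIT2 were not called in any window after that pulse.

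Of 30 other genes of the pathway, fixed as a second list, 28 had a spot and 26 were tested. With 2 g/l, 4 rose and 6 fell early, and 3 rose and 7 fell in the middle window. For 0.2 g/l the early counts were 3 and 7 and the middle counts 1 and 9, or 2 and 3 of 23 with shifted blocks left out. In each of these 4 windows 38.5% of the 26 were called. The shares of all genes were 37.6% and 43.8% after 2 g/l and 29.8% and 39.5% after 0.2 g/l, so that in 3 of the 4 windows the list was close to or below the background. The lowest in the middle window after 2 g/l was MLS1, the malate synthase of the glyoxylate cycle. It was at -2.94, -2.52, -2.52 and -2.77 in that window (adjusted p = 3.64e-05), at -2.87 at 90 min and at 0.82 and 1.08 at 210 and 240 min. Following the smaller pulse MLS1 was at -3.30, -2.56, -1.53 and -0.54 in the middle window (mean -1.98, adjusted p = 0.00125) and at 0.85 at 90 min, with no spot in a shifted block. In the late window the pulses differed for MLS1 by -2.74 (adjusted p = 0.0305).

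ADR1, the activator of the oxidation genes, was at -1.52 in the 2 g/l middle window (adjusted p = 0.00246) and at -1.28 in the 0.2 g/l early window (adjusted p = 0.007). Its 2 spots disagreed, with a median absolute difference of 0.538 and a correlation of 0.077 across arrays. STR3, a cystathionine β-lyase of the peroxisome, was higher: it stood at 1.73 in the 2 g/l middle window (adjusted p = 7.64e-06), and the pulses differed there by 1.20 (adjusted p = 0.0175). FAA3, a further acyl-CoA synthetase, differed by 0.93 (adjusted p = 0.00112). STR3 thus changed in the opposite direction to the oxidation genes called in that window.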

How the data were processed

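The deposited values were taken as log2 ratios per spot and were not normalized again for the main fit. The scale was inferred from the values. Cy5 (the pulsed culture, per the labels) was taken as the numerator and Cy3 (t=0) as the denominator, and the sources used here do not name the normalization or the image software. Of 10752 spots, 6834 were paired with a gene through the platform annotation, all matched by gene ID to RefSeq R64, and 3918 with none. Spots of a gene were averaged. Genes needed 2 or more values per window and were fitted with limma 3.58.1 (R 4.3.3; lmFit with 7 window means, eBayes), with two-sided p values and Benjamini-Hochberg adjustment over the whole table. The fit was tested on simulated data. Tables and figures used Python 3.11.15, pandas 2.3.3, numpy 2.4.6 and matplotlib 3.10.9. All members are named, and up to 4 called genes per comparison of the other pathway genes. Members and lists were chosen with earlier results of these data known. Other settings compared were array median centring, quantile normalization, other filters, 1 spot per gene, windows fitted alone, time as a block and leaving out each array. After seeing the data, leaving out shifted blocks, centring each block and leaving out 3 arrays were added. Blocks follow spot numbers, since the position on the slide was not analysed here. Promoter and protein sequences were not analysed here. Precision is limited by the number of arrays, and signal over background was not used.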

Additional observations from a re-analysis of the deposited data

Results flagged for a closer look

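Of 155 windows of single genes with 4 or 5 arrays, 4 (2.6%) held an array far from the others by Dixon's test, and chance alone flags about 1 in 20. PEX15 was at -0.824 at 10 min after 2 g/l, with the other early arrays between -0.319 and -0.228. PEX2 was at 0.445 at 5 min after 2 g/l, with the others between 0.084 and 0.133. POT1 was at -0.723 at 20 min after 2 g/l, with the others between -1.14 and -1.10. PEX22 was at -5.94 at 45 min after 0.2 g/l, in a shifted block, with the others between -0.881 and -0.147.

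Differences between the pulses passed the test for 4 members. In the middle window these were PEX3 (-0.729, 2 g/l minus 0.2 g/l), PEX10 (1.34) and PEX21 (1.29), and in the late window SPS19 (-1.17). With time as a block none of the 4 passed: the adjusted p was 0.125 for PEX3, 0.186 for PEX10, 0.136 for PEX21 and 0.0594 for SPS19. In that setting 0% of all genes were called in the middle window and 0.614% in the late window. Spots in shifted blocks entered the values of PEX10 and PEX21 after 0.2 g/l. PEX10 passed at 0.623 without them and at 1.02 with each block centred. PEX21 was not called with each block centred (0.793, adjusted p = 0.0864) nor without the array of 30 min after 0.2 g/l (0.832, adjusted p = 0.0821).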

How the results depend on the processing

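Counts of members called are given here by limma at the same threshold. Array median centring gave 1 in the last window after 2 g/l (2 in the report), 2 for the late difference between pulses (1) and 1 for the step from early to middle after 2 g/l (0). Quantile normalization gave 12 and 4 in the late (7) and last windows after 2 g/l, 2 in the late window after 0.2 g/l (0), 10 for the late difference and 3 for the step from early to middle after 0.2 g/l (6). The share of all genes called moved too, to 26.9%, 22.4%, 24.2%, 12.2% and 7.17%, from 14.5%, 8.38%, 7.54%, 3.03% and 6.22%. Genes with a value on all arrays gave 2 for the late difference and 1 for the 2 g/l step from early to middle. Windows compared alone gave counts of 3, 26, 11 and 1 over the 4 windows after 2 g/l (14, 17, 7 and 2 in the report), with 16.3%, 57%, 22.7% and 1.32% of all genes (37.6%, 43.8%, 14.5%, 8.38%), 0 for the 0.2 g/l middle window (25), 0 for the middle (3) and 5 for the late difference. In that setting the steps gave 0 from early to middle and 0 from middle to late after 0.2 g/l (6 and 3), 4 from middle to late (0) and 19 from middle to last (5) after 2 g/l. Time as a block gave 0 for the middle difference, with 0% of all genes. Without the 3 arrays least like their window the counts were 3 in the late window after 0.2 g/l, 7 for the middle and 2 for the late difference, and 10 and 21 for the steps after 0.2 g/l, with 13.4% and 18.5% of all genes. Leaving out shifted blocks gave 4 in the last window after 2 g/l, 2 in the late window after 0.2 g/l, 1 for the early (0) and 4 for the late difference, 2, 1 and 14 for the steps from early to middle, middle to late and middle to last after 2 g/l, and 5 for that from middle to late after 0.2 g/l. Centring each block gave 1 in the late window after 0.2 g/l and 1 and 11 for the steps from early to middle and middle to last after 2 g/l. It also turned CIT2 (0.007) and PEX6 (0.165) above 0 in the middle window after 0.2 g/l. Leaving out 1 array at a time gave counts of 3 to 15, 13 to 14, 2 to 3 and 0 to 1 over the 4 windows after 2 g/l, from early to last. Without 7 min the early count was 8. Over the windows after 0.2 g/l the counts were 3 to 11, 16 to 26 and 0 to 0. The differences between pulses gave 0 to 2, 2 to 7 and 0 to 2 in the early, middle and late window. The steps gave 0 to 1, 0 to 0 and 3 to 5 after 2 g/l, and 3 to 10 and 0 to 17 after 0.2 g/l. The cause of these changes was not tested. Where no share of all genes stands beside a count, it shows only that the calls depend on the setting. Of 1169 single-gene values recomputed under an alternative, 929 kept direction and call, 238 kept direction and lost the call, and 2 turned. No paired analysis was possible because the labels give no replicate numbers, and the time block above matches the pulses by minutes only.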

Other observations

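Of the 26 other pathway genes tested, 4 were higher and 6 lower in the 2 g/l early window. Those higher were STR3 (0.73, adjusted p = 0.0156), VPS1 (0.52, adjusted p = 0.0355), FAA3 (0.50, adjusted p = 0.00162) and NPY1 (0.30, adjusted p = 0.0441) by limma. PCD1, for a peroxisomal nudix hydrolase, was at -0.74 in the 2 g/l early window (adjusted p = 0.000333) and at -0.69 in the 0.2 g/l one (adjusted p = 0.000208) by limma. INP1, which retains peroxisomes in the mother cell, was at -0.63 in the 2 g/l early window (adjusted p = 0.000459). FAT1, a fatty acid transporter, was called at -2.19 ± 3.15 (n = 2) in that window, where its 2 arrays did not share a sign. LPX1, a peroxisomal lipase, was at -1.04 in the 2 g/l middle window (adjusted p = 0.0492). PEX34, which acts with Pex11 in division, was at -0.72 in the 0.2 g/l early window. AAT2, the aspartate aminotransferase that moves to peroxisomes on oleate, was at 0.57 in the 0.2 g/l late window.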
